A study of Mus musculus with 14 samples.

Results

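Of the 14 ATAC-seq libraries of this series, 4 were compared here: the libraries titled DMSO_50K, replicates 1 and 2, from a later numbered library series, and those titled EmptyVector (EV), replicates 1 and 2, from an earlier one. They were chosen by title. Both groups carry the cell line label Empty Vector mNSC, mouse neural stem cells from brain that received a vector without the ZFTA-RELA fusion. DMSO_50K replicates 1 and 2 and EV replicate 1 are labelled DMSO/Vehicle, and EV replicate 2 is labelled PBS/Vehicle. The treatment protocol and the design text, in contrast, name ZFTA-RELA cells alone as given DMSO, and the growth protocol, a serum-free medium with EGF and FGF, names those cells alone too. The titles of DMSO_50K name no cell line. Library series and the cells used cannot be told apart in this comparison. Vehicle by label divides the EV replicates, with 1 library each, and its part was not tested. Each result below is therefore a difference between the libraries labelled DMSO_50K and the libraries labelled EV. For reference, 6 further libraries were looked up, 2 each of ZR (ZFTA-RELA mNSC, labelled PBS/Vehicle), ZR_dmCitra (ZFTA-RELA mNSC, citraconate at 10 mM) and Citraconate_50K (ZFTA-RELA mNSC, citraconate at 10 mM, from the same library series as DMSO_50K). No label says whether replicates were separate cultures or how the vector lines were derived.

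ATAC-seq marks open chromatin: the Tn5 transposase inserts sequencing adapters where DNA is free of nucleosomes, and peaks stand at active promoters and enhancers. Neural stem cells keep open chromatin at genes such as Sox2, a transcription factor that holds them in the progenitor state, and Olig2, a factor of the glial lineage. ZFTA-RELA, the fusion that drives a supratentorial ependymoma, joins a zinc finger protein to RELA, the activating subunit of NF-kB, a factor that opens and activates inflammatory genes such as Cxcl10 and Tnf.

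The promoters of 6 called genes from the lists described below are shown first, 4 gained and 2 lost, picked with their values known and not as the strongest. Cxcl10 (a chemokine), Tnf (the cytokine tumor necrosis factor), Acod1 (the enzyme that makes itaconate, the metabolite citraconate resembles) and Six2 (a transcription factor of kidney progenitors) had a peak in both DMSO_50K lists and in neither EV list once the lists were shortened to equal length, though Acod1 had a weak one in the full list of EV replicate 2. Sox2 and Olig2 had one in both EV lists and in neither DMSO_50K list. The sequences are RefSeq promoters of GRCm38.p6, 250 bases before to 50 after the transcription start, 5′ to 3′, and capitals mark matches to the NF-kB consensus on either strand.
Cxcl10, chr5:92348840-92349139, strand -: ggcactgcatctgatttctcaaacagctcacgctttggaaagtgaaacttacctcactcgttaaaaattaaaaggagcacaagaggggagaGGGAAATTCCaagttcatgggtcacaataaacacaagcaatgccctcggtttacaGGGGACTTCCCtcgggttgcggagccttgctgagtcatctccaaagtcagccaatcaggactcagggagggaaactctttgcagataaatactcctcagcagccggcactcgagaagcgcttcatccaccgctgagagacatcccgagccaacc
Tnf, chr17:35201958-35202257, strand -: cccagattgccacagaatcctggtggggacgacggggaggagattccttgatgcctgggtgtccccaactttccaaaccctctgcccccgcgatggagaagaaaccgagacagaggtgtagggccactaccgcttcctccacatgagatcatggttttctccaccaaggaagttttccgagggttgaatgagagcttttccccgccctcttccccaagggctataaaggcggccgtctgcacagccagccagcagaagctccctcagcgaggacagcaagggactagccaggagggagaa
Acod1, chr14:103046762-103047061, strand +: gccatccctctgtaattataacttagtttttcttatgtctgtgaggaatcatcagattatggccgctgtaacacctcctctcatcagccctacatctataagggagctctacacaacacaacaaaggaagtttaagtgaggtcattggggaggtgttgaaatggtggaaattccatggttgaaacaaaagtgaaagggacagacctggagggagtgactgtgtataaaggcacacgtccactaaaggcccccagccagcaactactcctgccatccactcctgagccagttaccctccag
Six2, chr17:85688205-85688504, strand -: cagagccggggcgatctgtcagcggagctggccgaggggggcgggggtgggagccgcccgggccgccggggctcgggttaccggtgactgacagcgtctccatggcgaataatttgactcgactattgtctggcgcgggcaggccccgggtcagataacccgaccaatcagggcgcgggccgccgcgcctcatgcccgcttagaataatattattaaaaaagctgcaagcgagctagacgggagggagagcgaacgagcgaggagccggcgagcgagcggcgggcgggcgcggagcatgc
Sox2, chr3:34649745-34650044, strand +: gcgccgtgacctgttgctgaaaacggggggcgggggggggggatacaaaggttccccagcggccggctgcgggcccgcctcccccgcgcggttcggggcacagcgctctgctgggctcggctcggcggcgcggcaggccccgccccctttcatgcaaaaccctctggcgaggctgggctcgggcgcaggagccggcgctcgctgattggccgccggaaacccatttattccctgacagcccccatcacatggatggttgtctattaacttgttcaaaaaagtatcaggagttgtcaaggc
Olig2, chr16:91225300-91225599, strand +: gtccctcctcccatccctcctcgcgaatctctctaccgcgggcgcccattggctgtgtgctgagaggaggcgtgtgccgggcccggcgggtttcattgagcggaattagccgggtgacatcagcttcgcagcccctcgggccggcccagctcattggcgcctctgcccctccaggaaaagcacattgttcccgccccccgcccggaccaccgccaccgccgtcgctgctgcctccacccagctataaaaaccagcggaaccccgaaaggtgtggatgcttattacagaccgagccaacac
The Cxcl10 promoter held 3 consensus matches, 2 of them overlapping, and the other 5 promoters held 0. The Acod1, Tnf and Olig2 promoters each held 1 TATA box and the other 3 held 0. The Acod1, Cxcl10 and Tnf promoters held 2, 10 and 11 CpG dinucleotides, and those of Six2, Sox2 and Olig2 held 37, 27 and 25.

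The 4 deposited lists held 51099 and 58475 peaks on chromosomes 1 to 19 in DMSO_50K replicates 1 and 2, and 34015 and 42242 in EV replicates 1 and 2. Both DMSO_50K lists were longer than both EV lists. The ratio of the means was 1.44 (54787 ± 5216 against 38129 ± 5817, SD, n = 2 each; two-sided exact permutation p = 0.333, the smallest p that 2 libraries against 2 allow). Read depth is unknown, since the lists hold no read counts, so each list was shortened to its 34015 strongest peaks by −log10 q, the caller's measure of certainty. Equal length was not equal coverage. The shortened lists covered 26.7 and 31.6 Mb in DMSO_50K against 20.3 and 22.6 Mb in EV, and ended at a −log10 q of 12.9 and 17.8 against 3.37 and 6.25. A peak of moderate strength therefore stayed in the EV lists and dropped out of the DMSO_50K lists. Gained and lost counts over all regions and genes, and those of several gene lists, are given below under other scalings too. Counts given without them were not all the same under other scalings, and rank comparisons in shared regions and genes are given at equal list length only. In bulk libraries fewer cells with an open site and a less open site in each cell cannot be told apart.

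Although both groups carry the same cell line label, their open chromatin overlapped less than that of any other pair of the 5 groups compared at equal length. With each of the 10 lists at 28580 peaks, the mean Jaccard index (shared over combined covered bases) was 0.326 between DMSO_50K and EV, with a range of 0.312 to 0.338 over the 4 pairs of libraries. Replicates shared 0.701 in DMSO_50K and 0.664 in EV. DMSO_50K had a mean index of 0.508 with ZR, 0.475 with ZR_dmCitra and 0.440 with Citraconate_50K, each pair of libraries above every pair of DMSO_50K with EV. The EV libraries were at 0.370 with ZR.

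Merging the 4 shortened lists gave 58416 regions. Of these, 14617 (25.0%) were gained, with a peak in both DMSO_50K lists and neither EV list, 11657 (20.0%) were lost, with a peak in both EV lists and neither DMSO_50K list, and 13855 had a peak in all 4. The remaining 18287 regions were present in other combinations. The balance of gained and lost depended on scaling: it was 24669 gained and 9722 lost with the lists as deposited, 24391 and 9083 with a −log10 q of at least 5, and 6384 and 12830 at equal covered bases. Leaving out EV replicate 1, which has the shortest list, gave 19269 gained and 21047 lost, and leaving out the PBS-labelled EV replicate 2 gave 15603 and 16734. Of the gained regions, 14049 (96.1%) had no peak in either full EV list. Of the lost regions, 8619 (73.9%) had none in either full DMSO_50K list. These shares are not comparable, since the full EV lists add fewer peaks to the shortened ones (none in replicate 1) than the full DMSO_50K lists do, and the same holds for the gene counts with no peak in a full list given below.

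Gained and lost regions lay mostly away from gene starts, unlike shared ones. A window of 1 kb either side of a start held 3.02% of gained, 10.1% of lost and 59.4% of regions in all 4 lists. At equal covered bases these shares were 2.65%, 19.1% and 66.4%, in the same order. Gained regions were 46.3% within genes and 50.7% between genes, lost regions 45.9% and 44.0%.

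**Figure D1:**
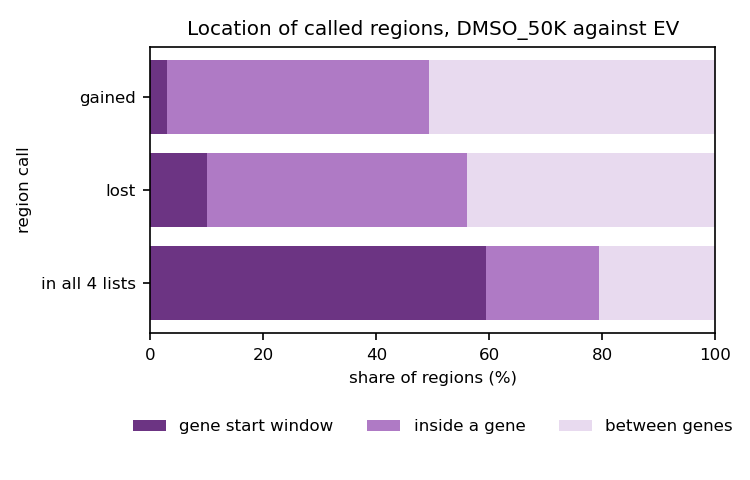
Share of regions (%) at a gene start, inside a gene and between genes, for regions gained in DMSO_50K, lost in DMSO_50K and present in all 4 lists. The gene start share is 3.02% for gained, 10.1% for lost and 59.4% for shared regions.

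Among the 13855 regions in all 4 lists, 24.2% ranked higher in both DMSO_50K lists than in either EV list and 50.5% ranked lower. At gene starts the shares were 16.0% and 58.2%, and the median rank percentile (100 for the strongest peak of a list) was 73.0 in DMSO_50K against 83.2 in EV. Inside genes 37.3% ranked higher and 38.4% lower, and between genes 35.2% and 40.0%.

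The gained regions were then looked up in libraries that had no part in choosing them. At 28580 peaks per list, 52.4% and 52.5% of the gained regions had a peak in ZR replicates 1 and 2, 47.0% and 46.4% in ZR_dmCitra, and 37.8% and 36.7% in Citraconate_50K. Of the lost regions, 8.43% and 8.22% had one in ZR, 9.01% and 8.96% in ZR_dmCitra, and 10.2% and 10.0% in Citraconate_50K. Regions in all 4 lists were found at 84.5% to 87.3% in these 6 libraries. The gained regions were thus found several times as often as the lost ones in each of the 6 libraries labelled as fusion cells. At this shorter length the DMSO_50K lists themselves kept 85.6% and 86.4% of the gained regions, and the EV lists 88.1% and 85.7% of the lost ones. The share in ZR exceeded that in Citraconate_50K by 15.2 percentage points, more than the spread between replicates. None of the 9 pairwise comparisons of the groups could pass 0.05 (each a two-sided exact permutation p of 0.333, and 0.333 after Benjamini-Hochberg adjustment). For comparison, regions in 1 DMSO_50K list only were found at 23.8% and 22.7% in ZR, and regions in 1 EV list only at 5.92% and 5.80%.

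**Figure D2:**
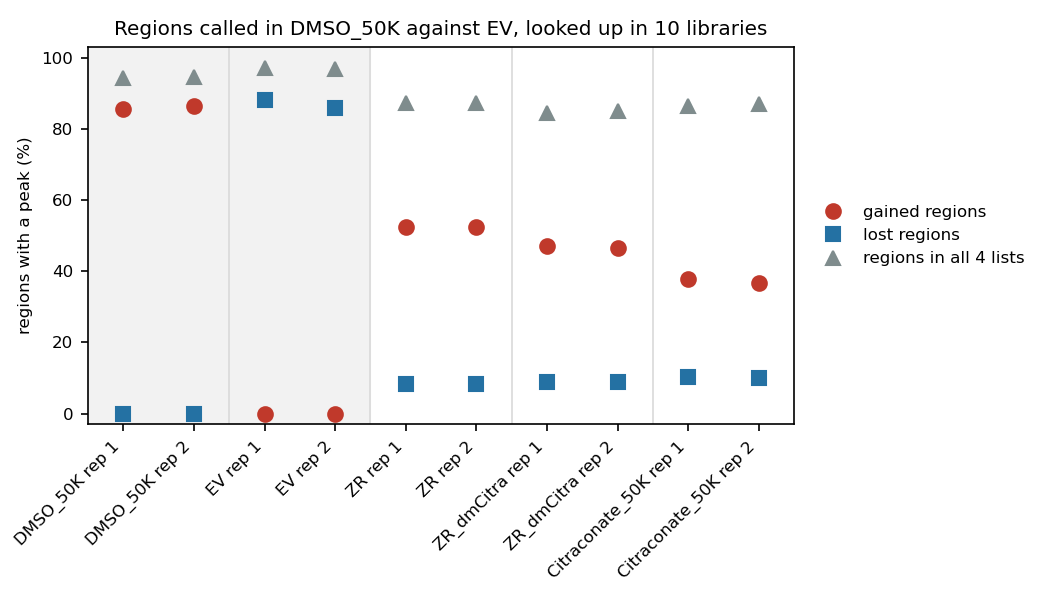
Percent of gained, lost and shared regions (y axis) with a peak in each of 10 libraries (x axis) at 28580 peaks per list; the grey band holds the 4 libraries the regions were chosen in. Gained regions stand at 36.7% to 52.5% and lost regions at 8.22% to 10.2% in the other 6 libraries.

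The strongest gained regions recurred most. By the poorer of its 2 DMSO_50K ranks, a gained region within the strongest 8503 peaks had a peak in ZR replicate 1 in 86.4% of cases. The share was 67.8% for the next band, up to rank 17007, 46.8% up to rank 25511 and 33.1% up to rank 34015. For lost regions in the same bands of EV rank the shares were 9.74%, 9.72%, 8.40% and 7.30%. Of the gained regions, 3178 (21.7%) had a peak in all 6 further libraries and 4530 (31.0%) in none of them, of which 2879 had none in the 6 full lists either. A peak in both Citraconate_50K lists, which share the library series of DMSO_50K, but in no ZR or ZR_dmCitra list was found for 334 gained regions. Of the lost regions, 9271 (79.5%) had a peak in none of the 6.

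Gene by gene, 11669 protein-coding genes had a peak in the start window in at least 1 list. Of these, 336 (2.88%) gained it, 969 (8.30%) lost it and 9070 had it in all 4 lists. The split was 567 gained and 388 lost with the lists as deposited, 583 and 379 with a −log10 q of at least 5, and 138 and 2330 at equal covered bases, so that the larger side changes with the scaling. Of the lost genes 341 had no start-window peak in either full DMSO_50K list, and of the gained genes 306 had none in either full EV list. Gene lists are described against these shares. For genes without a given start either end of the gene served as the window, among those named below Olig1, Tppp3, Tagln, Cdh5, Ccl2, Ccl7, Relb, Cxcl5, Hes1, Vcam1, Ccnd1, Tbx2, Hoxa4 and Epop.

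The neural stem and radial glia list held the most lost genes. Of its 24 genes with a start-window peak, 6 lost it, 0 gained it and 15 kept it in all 4 lists. None of the list was gained under any of the 4 scalings, and the number lost was 3 with the lists as deposited, 4 with a −log10 q of at least 5 and 12 at equal covered bases. The regions assigned to the list's genes, within them or nearest to their start within 100 kb, were 24 gained and 62 lost, against 11471 and 9692 over all protein-coding genes. With the lists as deposited they were 42 and 48, against 19606 and 7901.

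Sox2 (chr3:34649995-34652461) ranked 1583 of 34015 in EV replicate 1 and 2748 in EV replicate 2, with a fold enrichment over background of 36.6 and 35.4 as the authors' caller gave it. It had no start-window peak in either full DMSO_50K list, nor at 28580 peaks in ZR, ZR_dmCitra or Citraconate_50K. Sox1, its close relative in early neural progenitors, ranked 5067 and 4377 in EV, and was likewise absent from both full DMSO_50K lists and from the 6 further libraries.

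Hopx, a marker of quiescent and outer radial glia, ranked 8879 and 12185 in EV, against 43512 and 49650 in the full DMSO_50K lists. Slc1a3, which encodes the glutamate transporter GLAST of radial glia, ranked 9790 and 10924 in EV and 49522 in DMSO_50K replicate 1. Of the full DMSO_50K lists, both thus held a weak Hopx peak, and that of replicate 1 alone a weak Slc1a3 peak. Nr2e1 (also Tlx), a nuclear receptor that keeps adult stem cells dividing, was also lost, and is named here after its values were seen, at ranks 16943 and 15116 in EV and absent from both full DMSO_50K lists.

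Pou3f2, a neural POU factor, had the strongest EV peaks of the neural genes described here, at ranks 343 and 201, and ranked 38220 and 29805 in DMSO_50K, the first of them beyond the shortened list, so that it was not called. Hes5, a Notch target, had a peak in all 4 lists but ranked 25615 and 23009 in DMSO_50K against 15201 and 18508 in EV. Id3, a BMP-induced inhibitor of differentiation, ranked 28545 and 27628 against 16427 and 12756. In both genes the groups did not overlap, the DMSO_50K ranks being poorer. Nes, which encodes the neural stem cell filament nestin, had no start-window peak in any of the 4 full lists. The regions assigned to Nes were 0 gained, 2 lost and 1 in all 4 lists, and Nes was called lost with both gene ends as windows. Of the 15 neural stem genes in all 4 lists 11 ranked lower in both DMSO_50K lists and 1, the Notch target Hes1, ranked higher, where 57.4% and 16.1% of all genes did so. The defining neural stem genes Sox2 and Sox1 thus had a start-window peak in EV and none in DMSO_50K, while Nes had none in either group. Vim, an intermediate filament of neural progenitors and many other cells, ranked 1895 and 1576 in DMSO_50K and 1134 and 1136 in EV.

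Markers of the neural lineages gave few peaks. Both Olig1 and Olig2, of 4 oligodendrocyte lineage genes with a peak, were lost. Olig2 ranked 4461 and 6212 and Olig1 4462 and 6213 in EV, from separate peaks of the same strength, and neither had a start-window peak in a full DMSO_50K list. The regions assigned to each were 7 lost and 0 gained. Of 8 neuronal genes 3 were lost: the proneural factor Neurod1 (ranks 8771 and 13288 in EV, none in the full DMSO_50K lists), the interneuron factor Dlx2 and the GABA-synthesising enzyme Gad1. Dlx2 and Gad1 had weak peaks in both full DMSO_50K lists, at ranks 42976 and 51538, and 42974 and 51537. The number of neuronal genes lost was 1 with the lists as deposited and 5 at equal covered bases. Regions assigned to the neuronal list were 21 gained and 18 lost, 28 and 11 with the lists as deposited, and 9 and 19 at equal covered bases. Of 6 astrocyte genes 2 were lost, Fgfr3 (ranks 23221 and 12179 in EV) and the gap junction gene Gja1 (19973 and 21551). With the lists as deposited 0 were lost and 1 was gained. The Gja1 call ended without EV replicate 1, and the best Gja1 peaks of the EV replicates did not overlap, so that its ranks come from different peaks. Gfap, Aqp4 and S100b had no start-window peak in any list, though 1 gained and 3 lost regions were assigned to Aqp4. Regions assigned to the astrocyte list were 19 gained and 26 lost, 35 and 23 with the lists as deposited, and 7 and 24 at equal covered bases. Of 8 cilia genes 7 had a peak in all 4 lists and Tppp3 was lost.

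Markers of 3 other cell types were counted too. Of 3 microglial genes with a peak 0 were gained and 0 lost. Of 10 mesenchymal genes 1 was gained, Twist2, a mesodermal factor, at ranks 15920 and 20934 in DMSO_50K. The 1 lost was Tagln, a smooth muscle gene, at 26131 and 28648 in EV. The mesenchymal count was 2 gained and 1 lost with the lists as deposited, and 0 and 2 at equal covered bases. Regions assigned to this list were 24 gained and 15 lost, 42 and 12 with the lists as deposited, and 9 and 16 at equal covered bases. Of 3 endothelial genes 1 was gained, the cadherin Cdh5 (16611 and 7985), and 1 was lost, the VEGF receptor Kdr (13178 and 16529 in EV). Their part in the other differences was not tested.

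**Figure D3:**
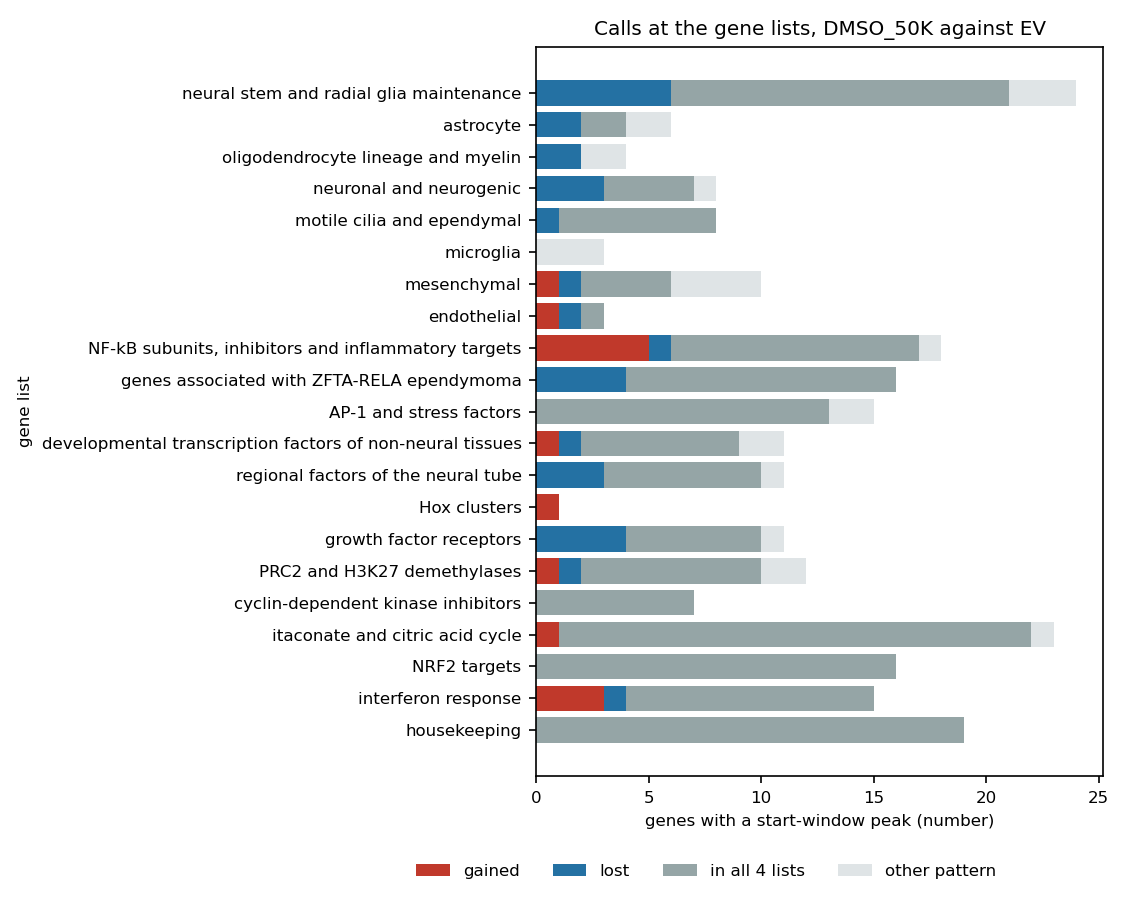
Number of genes (x axis) with a start-window peak in each of 21 gene lists (y axis), by call: gained in DMSO_50K, lost in DMSO_50K, in all 4 lists, or another combination. The neural stem list shows 6 lost of 24 genes and the NF-kB list 5 gained of 18, the highest counts in either direction.

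The NF-kB list was the one with the most gained genes. Of 18 genes with a start-window peak, 5 gained it and 1 lost it, against 2.88% and 8.30% of all genes. The counts were 5 and 0 with the lists as deposited and with a −log10 q of at least 5, and turned to 2 and 3 at equal covered bases. Regions assigned to its genes were 21 gained and 7 lost, and 9 and 9 at equal covered bases.

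Cxcl10, the chemokine whose promoter is shown above with its consensus matches, ranked 14364 and 13090 in DMSO_50K, with fold enrichments of 18.4 and 22.7, and had no start-window peak in either full EV list. The peak of DMSO_50K replicate 1 (chr5:92348796-92349681) spans the printed promoter. Cxcl10 also had a peak in both ZR lists, at percentiles of 69.9 and 72.2, in both ZR_dmCitra lists at 33.2 and 34.2, and in Citraconate_50K replicate 1 alone.

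Tnf ranked 19611 and 17378 in DMSO_50K and was absent from both full EV lists. At 28580 peaks it was absent from both ZR lists and present in both Citraconate_50K lists, at percentiles of 50.1 and 29.1. Cxcl2, a neutrophil chemokine, ranked 16474 and 23032, and Ccl20, a chemokine of mucosal inflammation named here after its values were seen, 29012 and 25927; neither had a start-window peak in a full EV list. Ccl2, a monocyte chemokine, ranked 19338 and 16657. Its peak in DMSO_50K replicate 1 lay at chr11:82038405-82039501, beyond the higher-coordinate end of the gene (chr11:82035577-82037452). No start site was given for this gene, so that the call rests on a gene end. The Ccl2 call ended with windows of 500 bp and of 2 kb, so that it depends on the window size. Ccl7, its neighbour, was the lost gene (ranks 14594 and 16927 in EV), and its call ended without EV replicate 1.

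Cxcl1, a gene of the same cluster as Cxcl2, had no start-window peak in DMSO_50K, EV or Citraconate_50K, but had one in both ZR lists (percentiles 59.0 and 54.5) and both ZR_dmCitra lists (64.1 and 60.4).

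Among the NF-kB subunits and inhibitors, several had a peak in all 4 lists. Rela, which encodes the subunit in the fusion, ranked 31565 and 32109 in DMSO_50K against 16134 and 20765 in EV. Tnfaip3, which encodes the feedback inhibitor A20, ranked 7897 and 8541 against 3737 and 1883. Both were poorer in DMSO_50K with no overlap, as were 57.4% of genes in all 4 lists. Relb, a subunit of the non-canonical pathway, went the other way, at 493 and 333 in DMSO_50K against 4547 in both EV lists. It was 1 of 2 genes of the 11 in all 4 lists to rank higher, the other being Cxcl5. The best Cxcl5 peaks of DMSO_50K and EV lay apart in both replicates, so that its ranks compare different peaks. Relb and Cxcl5 were named after their values were seen. Vcam1, an adhesion molecule, ranked 31801 and 27562 against 27913 and 22427, with the groups overlapping.

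Of 16 genes associated with ZFTA-RELA ependymoma that had a peak, 0 were gained and 4 lost, namely Arl4d, Cldn1, Fgfr3 and Lmx1b, against 1 lost with the lists as deposited. The regions assigned to the list were 28 gained and 19 lost, 46 and 16 with the lists as deposited, and 11 and 26 at equal covered bases. The Arl4d and Lmx1b calls ended without EV replicate 1. Lmx1b and Arl4d had peaks in both full DMSO_50K lists, and Fgfr3 in 1. Cldn1, a tight junction gene, had no start-window peak in either and ranked 18875 and 25377 in EV. Ccnd1, cyclin D1, ranked 15841 and 7735 in DMSO_50K and 16683 and 16668 in EV, higher in both but by little in replicate 1. Runx1, a haematopoietic factor, ranked 2435 and 4471 against 11204 and 10497. It is named after its values were seen, as the other gene of the 12 in all 4 lists that ranked higher. L1cam lies on chromosome X, outside the comparison.

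Acod1 (chr14:103047012-103056573), the only gained gene of the 23 itaconate and citric acid cycle genes with a peak, had the best poorer rank among the gained list genes named here. It ranked 2736 and 2627 in DMSO_50K, with fold enrichments of 40.2 and 47.2. EV replicate 1 had no start-window peak, and EV replicate 2 had one at rank 34725 of its full list, just past the shortened length, with a fold of 5.82. With the lists as deposited, a −log10 q of at least 5 or without EV replicate 1, Acod1 is therefore no longer gained. Acod1 had a peak in both ZR lists, at percentiles of 52.1 and 26.5, and in both ZR_dmCitra lists, at 44.0 and 50.9. Neither Citraconate_50K list had one. At the same length DMSO_50K stood at 90.4 and 90.8, above each of the others. Of the other 22 genes of the list 21 had a peak in all 4 lists, and Idh2, a mitochondrial isocitrate dehydrogenase, was the 1 that ranked higher in both DMSO_50K lists.

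Six2, the gained gene of 11 developmental factors of non-neural tissues, ranked 3243 and 6004 in DMSO_50K and was absent from both full EV lists. It had a peak in each of the 6 further libraries, at percentiles of 90.9 and 90.8 in ZR, 69.7 and 71.0 in ZR_dmCitra and 57.8 and 54.4 in Citraconate_50K. Tbx2, a T-box factor, was lost in the same list, at ranks 4641 and 5926 in EV, but had peaks at 39446 and 37767 in the full DMSO_50K lists, and the call ended without EV replicate 1, which lengthens the lists. Of the Hox clusters Hoxa4 alone had a start-window peak, gained at ranks 19951 and 23893.

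Regional factors of the neural tube gave 3 lost and 0 gained of 11: En1, a midbrain factor (11694 and 15064 in EV), Gbx2, a hindbrain factor (21765 and 26632), and Dlx2. With the lists as deposited, 2 were lost and 1 gained. Of 11 growth factor receptor genes 4 were lost and 0 gained, against 2 lost and 1 gained with the lists as deposited. Their assigned regions were 33 gained and 22 lost, 52 and 19 with the lists as deposited, and 15 and 22 at equal covered bases. Kit (16484 and 14826 in EV) and the neurotrophin receptor gene Ntrk2 (11871 and 18003) had no start-window peak in a full DMSO_50K list. The best Ntrk2 peaks of the EV replicates did not overlap. Erbb2 had one in both, and its call ended without EV replicate 1, and Fgfr3 is described above.

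Interferon genes gained 3 and lost 1 of 15. Isg15, a ubiquitin-like antiviral protein, ranked 13732 and 9267 in DMSO_50K, and Ifi35 29276 and 26092. Irf7, the regulator of the interferon response, ranked 25849 and 26790, and had a weak peak at 39170 in the full list of EV replicate 2, so that its call too ended without EV replicate 1. Irf9, a partner of the STAT factors, was lost (18729 and 14514 in EV). The count was 2 gained and 1 lost with the lists as deposited and 1 and 2 at equal covered bases.

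Other lists kept most of their peaks. Their counts of genes ranked higher or lower stand beside 16.1% higher and 57.4% lower over all genes in all 4 lists. Of 16 NRF2 target genes, the oxidative stress response, 0 were gained or lost. With the lists as deposited 1 NRF2 gene was gained and 0 lost, and at equal covered bases 0 and 1. In all 4 lists, 5 ranked higher in both DMSO_50K lists (Nfe2l2, Nqo1, Slc7a11, Txn1 and Txnrd1) and 8 lower. The quinone reductase gene Nqo1 ranked 3798 and 2429 in DMSO_50K against 8000 and 8653 in EV. Of 15 AP-1 and stress genes 13 were in all 4 lists, with 3 higher (Atf3, Egr1 and Jun) and 6 lower. None was gained or lost, but 1 was lost at equal covered bases. Atf3, a stress-induced factor, ranked 1708 and 1073 against 8053 and 8699. The 7 cyclin-dependent kinase inhibitor genes were in all 4 lists and each ranked lower in DMSO_50K, Cdkn2a at 7164 and 5713 against 3853 and 2183. The best Cdkn2a peaks of DMSO_50K and EV lay at different starts of the gene in both replicates, so that its ranks compare different peaks. Of 12 PRC2 and H3K27 demethylase genes 8 were in all 4 lists, 7 of them lower, among them the methyltransferase gene Ezh2 at 3773 and 2841 against 1669 and 1748. Its cofactor gene Epop was gained (30982 and 33047) and Phf1 lost (22595 and 20697 in EV), the latter not without EV replicate 1. The PRC2 count was 1 gained and 0 lost with the lists as deposited, and 0 and 1 at equal covered bases. The 19 housekeeping genes with a peak were in all 4 lists, 10 lower and 3 higher. At equal covered bases 1 housekeeping gene was lost. The NRF2 and AP-1 genes named here, Idh2 and Hes1 were picked after their values were seen.

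**Figure D4:**
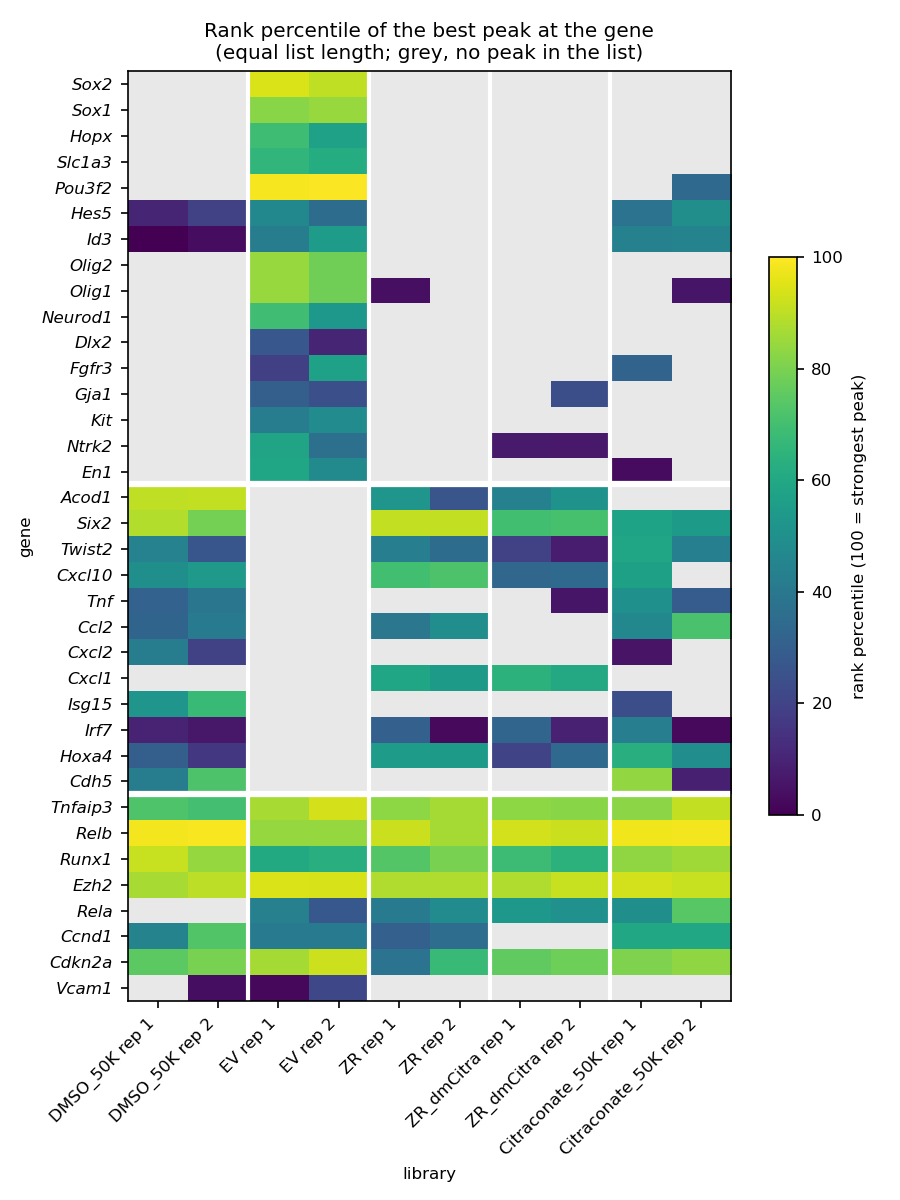
Rank percentile (colour; 100 is the strongest peak of a list, grey is no peak) of the best start-window peak of 36 genes (rows) in 10 libraries (columns) at 28580 peaks per list. Sox2, Sox1 and Olig2 are bright in EV and grey elsewhere, whereas Dlx2 and Gja1 are dark in EV. Hes5 and Id3 are coloured in EV, DMSO_50K and Citraconate_50K. Acod1 and Six2 are bright in DMSO_50K and grey in EV.

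Lost genes as a whole reappeared in the other libraries more often than lost regions did. Of the 969 lost genes, 24.7% and 23.7% had a start-window peak in ZR, 25.6% and 28.1% in ZR_dmCitra, and 39.3% and 42.9% in Citraconate_50K. Of the 336 gained genes, 50.9% and 50.3% had one in ZR, 45.2% and 48.2% in ZR_dmCitra, and 57.7% and 56.0% in Citraconate_50K. For the gained genes Citraconate_50K was highest, whereas for gained regions it was lowest of the 3 groups. Gained regions at gene starts were also found most in Citraconate_50K, at 57.6% and 55.8%, against 53.7% and 53.3% in ZR. Lost regions at gene starts were at 35.1% and 37.9% in Citraconate_50K. Its lists held a start-window peak at more genes of any call, 10459 and 10568, against 9676 and 9680 in ZR.

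Promoters of gained and lost genes differed in base composition. Of the RefSeq promoters on chromosomes 1 to 19, 328 were gained and 963 lost by their own start window. The median number of CpG dinucleotides per 300 bases was 6 in gained, 18 in lost and 23 in promoters with a peak in all 4 lists, against 4 in promoters with none. The AP-1 site TGANTCA, searched on both strands, was in 13.7% of gained, 4.05% of lost and 7.06% of every promoter, and in 10.5% of promoters with no peak, which share the low CpG content. The core of the interferon-stimulated response element was in 7.93%, 2.39% and 3.38%, and in 4.05% of promoters with no peak. The TATA box TATAAA was in 16.2%, 6.02% and 12.7%, and in 20.9% of promoters with no peak. The NF-kB consensus was in 11.6%, 13.1% and 9.42%, and in 7.49% with no peak, so that its matches were about as frequent in lost as in gained promoters. The SOX core ACAATG was in 10.4%, 6.75% and 10.4%, and in 15.2% with no peak. The octamer ATGCNAAT, to which POU factors bind, was in 2.74%, 2.60% and 2.86%, and in 3.58% with no peak. The octamer and CCAAT motifs can overlap other motifs, and matches describe these windows only. CCAAT itself was in 40.9%, 28.5% and 38.1%, and in 37.9% with no peak.

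Ranked over chromosomes 1 to 19, the 10 strongest gained regions with no peak in either full EV list included an intronic region of Map2k6, a kinase of the p38 stress pathway (chr11:110511048-110512256, ranks 100 and 134, fold 97.6 and 104), and the start of Ptpre, a receptor phosphatase (chr7:135604590-135606422, ranks 159 and 120). Both were also strong in the fusion libraries: the Map2k6 region ranked 427 and 350 in ZR, 490 and 610 in ZR_dmCitra and 2736 and 2420 in Citraconate_50K. A region inside Slc25a21, a mitochondrial carrier gene, and regions near Kif21a and Bcas1 likewise had a peak in each of the 6. A region inside Nrxn3, a synaptic adhesion gene (ranks 123 and 139), had a peak in ZR and ZR_dmCitra and none in Citraconate_50K.

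The strongest 2 of the 10 behaved differently. The region near Tcstv3 (chr13:120320877-120321637) ranked 50 and 73 in DMSO_50K and 33 in both Citraconate_50K lists, and that near Gm9631 (chr11:121982363-121982540) 53 and 83, and 40 and 39. Both were absent from the ZR lists, and Tcstv3 appeared in ZR_dmCitra replicate 1 alone, at rank 26593. These 2 regions were thus present in both groups of the later library series, which differ in cell line label. Tcstv3 belongs to a family of near-identical copies, where the placing of reads is uncertain.

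Among the 10 strongest lost regions, 8 had no peak in any of the 6 further libraries at 28580 peaks. They included regions inside Diaph3, a formin (chr14:86757248-86758719, ranks 815 and 368 in EV), Nkain3 (828 and 1171) and Astn2, a neuronal migration gene (1146 and 1439), and the strongest, between genes at chr2:142437357-142438920 (266 and 562). The exceptions were a region on chromosome 15, present in ZR_dmCitra at ranks 26711 and 26834, and one near Cd209a. The latter (chr8:3754399-3754593, ranks 539 and 619 in EV) ranked 140 and 142 in Citraconate_50K, and 8992 and 7992 in ZR.

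Some genes held many called regions. These were picked after their values were seen and are mostly long genes. Nrxn3 held 24 gained and 1 lost region over 1612 kb, the synaptic scaffold gene Dlg2 20 and 0, and Lrp1b and Sdk1 15 and 0 each. In the other direction Slc1a3 held 12 lost and 1 gained over 76.7 kb, Celf4, a neuronal RNA-binding protein gene, 14 and 1, and the atypical cadherin gene Fat3 12 and 0. Sfi1, with 23 lost and 0 gained, and Gm21119, with 18 and 0, lie in families of near-identical copies and are uncertain.

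By chromosome, chromosome 15 stood apart. Of its regions 18.5% were gained and 26.0% lost, against 25.0% and 20.0% over chromosomes 1 to 19, the lowest gained and highest lost share of the 19. At equal covered bases the shares were 8.73% and 36.8%, against 14.3% and 28.7%, and with the lists as deposited 23.5% and 16.1%, against 29.9% and 11.8%. Regions of chromosome 15 in all 4 lists had a median percentile of 62.0 and 59.4 in DMSO_50K and 78.5 and 78.0 in EV. The difference of −17.5 compares with −7.39 over all chromosomes. In the 9692 regions present in all 10 lists, those on chromosome 15 stood at 66.8 and 65.9 in DMSO_50K, against 73.6 and 72.5 over all chromosomes in the same libraries, and at 83.6 and 84.9 in EV, against 79.5 and 79.9. ZR libraries were at 74.5 and 76.3 and Citraconate_50K at 79.8 and 79.0 there. Slc1a3 lies on this chromosome.

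On chromosome 4, 20.3% of regions were lost, close to the 20.0% over all. In the regions of all 10 lists its percentiles were 79.7 and 78.2 in DMSO_50K, above the 73.6 and 72.5 over all chromosomes, and 81.5 and 83.1 in EV, above 79.5 and 79.9. In ZR they were 60.8 and 60.2, against 77.3 and 77.5 over all, and in ZR_dmCitra 61.8 and 63.9, against 77.0 and 77.8. Citraconate_50K, labelled ZFTA-RELA mNSC, stood at 85.2 and 84.4, against 81.4 and 81.7. On chromosome 11 the percentiles were 59.9 and 61.0 in ZR, 68.5 and 67.1 in DMSO_50K, 71.7 and 72.9 in EV and 81.3 and 81.7 in Citraconate_50K. Those in ZR, DMSO_50K and EV were each below the value over all chromosomes in the same library, given above.

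**Figure D5:**
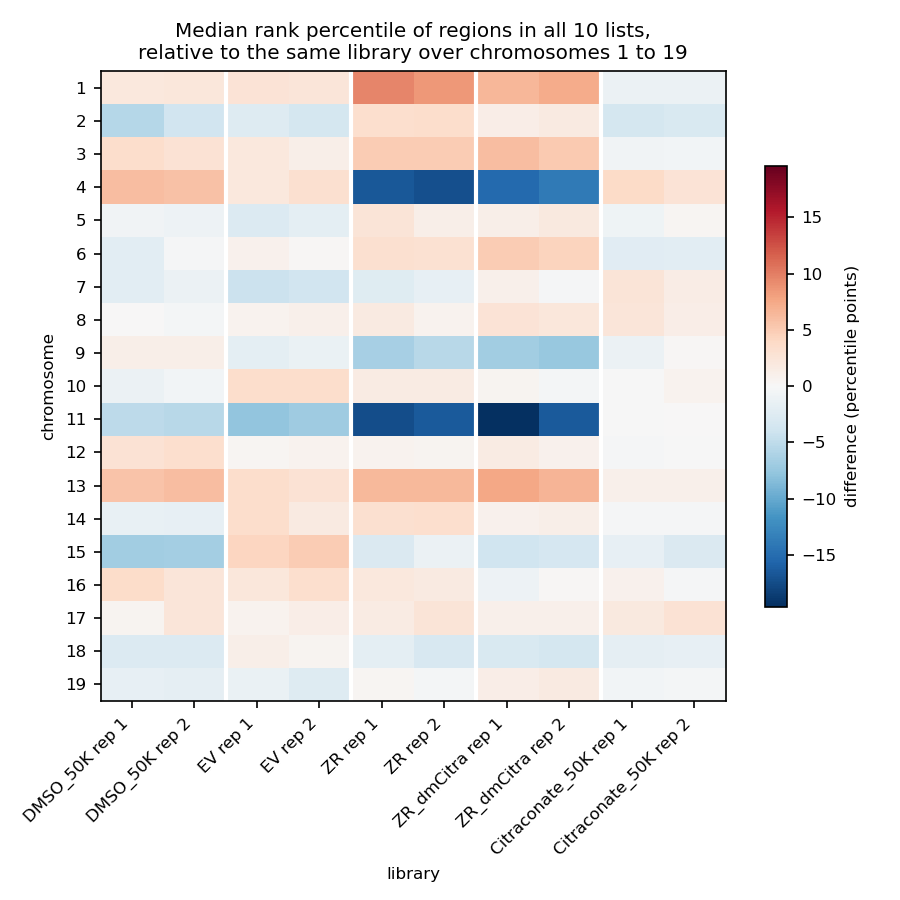
Median rank percentile of the 9692 regions in all 10 lists, by chromosome (rows) and library (columns), as the difference in percentile points from the same library over chromosomes 1 to 19. Chromosome 15 is low in both DMSO_50K libraries and high in both EV libraries, and chromosome 4 is low in ZR and ZR_dmCitra. Chromosome 11 is low in ZR and ZR_dmCitra and, by less, in DMSO_50K and EV.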

How the data were processed

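Each ATAC-seq library was made from 50000 cells and read as 50 nt pairs, per the labels' protocols. The submitters' processing notes name the build mm10 and the tools BWA, SAMtools and Picard, with no version. Peak names in the deposited files show that MACS2 called each library separately; its settings, and whether reads were shifted for Tn5, were not given in the sources. The deposited columns used are the caller's fold enrichment, a ratio, and its −log10 q-value, which are the authors' values and served only to rank, filter and describe peaks within a list. Depth cannot be read from the lists.

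Groups came from titles. Members and gene lists were chosen with earlier results of these data known. Lists were limited to chromosomes 1 to 19, shortened to 34015 peaks (28580 when 10 lists were used) by −log10 q and merged, and a peak counted with 1 bp of overlap. The ZR_DMSO and ZR_GSK343 libraries were not used here. Start windows reached 1 kb either side of RefSeq starts (GRCm38.p6, the coordinates of mm10) for 16457 of 20665 protein-coding genes, and of both ends for the other 4208. Of 373 entries in 21 gene lists, 15 genes had no match on these chromosomes. Named genes were up to 4 gained and 4 lost per list by their poorer rank and a fixed set; named regions were the 10 strongest gained and lost ones absent from the full lists of the other group. Some results under this rule are not reported here. Single values were tested with a two-sided exact permutation test (Python 3.11.15, SciPy 1.17.1), and the calling was checked on simulated lists. Promoter motifs were searched on both strands. The closing section gives the alternatives tried; 2 of them, both ends for every gene and genes with a start site alone, were added after the data were seen.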

Additional observations from a re-analysis of the deposited data

Results flagged for a closer look

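Outside the comparison, which is limited to chromosomes 1 to 19, both DMSO_50K libraries had a larger share of their deposited peaks on chromosome X than both EV libraries, 2.84% and 2.87% against 2.52% and 2.44%. The shares were 2.93% and 2.97% in ZR, 2.94% and 2.87% in ZR_dmCitra, and 2.18% and 2.19% in Citraconate_50K. The difference between DMSO_50K and EV was 0.375 percentage points (two-sided exact permutation p = 0.333, the smallest possible). On chromosome Y the shares were 0.140% and 0.220% in DMSO_50K against 0.251% and 0.351% in EV.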

How the results depend on the processing

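The balance of gained and lost depended on how the lists were scaled. With the lists as deposited there were 24669 gained regions, 567 gained and 388 lost genes, and 12.4% of chromosome 4 regions lost. With a −log10 q of at least 5 these were 24391, 583, 379 and 12.2%, and at equal covered bases 6384, 138, 2330 and 29.2%. The chromosome 4 share differed from that over all chromosomes by −0.079 to 1.28 percentage points over the settings run, and was 18.95% with an overlap of 50% and 18.5% with summit windows. Leaving out 1 library moved lost regions between 12410 and 21047 and the chromosome 4 share between 22.1% and 32.6%, since fewer lists must then hold or lack a peak. Ranking by fold gave identical counts and the same call for all 52 named genes, so that it was no separate check. Windows of 500 bp and 2 kb, both gene ends, and start sites alone left the gene counts within 1.5 times.

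With the lists as deposited, gained regions were found at 68.2% in ZR, 60.3% in ZR_dmCitra and 38.1% in Citraconate_50K, and lost regions at 18.6%, 17.8% and 10.5%. With an overlap of 50% these were 39.8%, 35.6%, 17.2%, 6.59%, 7.23% and 5.63%. Of 52 named genes, 15 changed call with the lists as deposited, 15 at equal covered bases and 9 without EV replicate 1, among them Acod1 in the first and the last; none turned from gained to lost or back in any setting run.

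Same-numbered deviations from the group means had a correlation of r = −0.029 over 13855 shared regions. With 2 libraries per group this cannot settle whether replicate numbers pair the libraries. With the replicate block the peak number ratio stayed 1.44 (exact sign-flip p = 0.5, the smallest that 2 pairs allow). Depth is unknown, and 2 libraries per group leave the spread imprecise.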
